A study of Homo sapiens with 96 samples.

Results

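The mRNAs described here encode the transcription machinery of RNA polymerase II (Pol II). They are the 12 Pol II subunits POLR2A to POLR2L, the general factors TFIIA, TFIIB, TFIIE, TFIIF and the core of TFIIH (GTF2 genes), TBP with its associated factors (TAF genes), and the Mediator subunits (MED genes). Members were picked by a rule on gene symbols, set with earlier results of these data known. The rule matched 79 of the 44659 entries of the count table. Of these, 78 had at least 1 count and 68 passed the filter on low counts and were tested. The 11 that were not tested are GTF2H1, GTF2H2, GTF2H4, MED10, MED18, MED22, TAF15, TAF1L, TAF4, TAF7L and TAF9. The count table holds further entries of the same name with a number suffix for GTF2H1, GTF2H2, GTF2H4, MED18, MED22, TAF15, TAF4 and TAF9. Among the tested members, POLR2A and MED16 have such entries. Their part in the low counts was not tested, so a low count is not read as a lack of expression. The members took between 0.441% and 0.599% of the counts of a library.

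The samples were 96 libraries of cytoplasmic RNA from A375 cells, an established human melanoma line with a mutated BRAF kinase. The libraries were prepared by QuantSeq, which primes on the poly(A) tail and counts transcript 3′ ends, so that a count does not grow with transcript length. Cells were kept for 18 h in DMSO (control cells) or in MAPKi, which is 500 nM vemurafenib plus 500 nM cobimetinib, inhibitors of BRAF and MEK. The second treatment was vehicle, 100 µg/ml cycloheximide (CHX, an inhibitor of translation elongation), 25 µM triptolide (T) or triptolide with cycloheximide given 5 min earlier (TCHX), and cells were harvested at 0, 1, 3 or 5 h. These choices gave 32 groups of 3 libraries, and every group came from the same cell line, with no genetic change. Nothing in the labels says that the 3 libraries of a group came from separate cultures, so p-values measure the spread between these libraries. Total counts ran from 2381351 to 12520154 per library, with a median of 7143396. Of 8 melanocyte lineage markers in the vehicle arm at 0 h, SOX10, MITF, S100B and S100A1 had at least 92.6 CPM (counts scaled to a common library size, here by the total count) in every library, and MLANA and TYR, which mark pigmented cells, at most 3.23 and 0.937 CPM. The pigment genes DCT and PMEL were far higher in MAPKi, with 46.6 to 62.2 and 0.624 to 1.54 CPM in DMSO and 1683 to 2872 and 13.5 to 18.2 CPM in MAPKi. Of 10 markers of other cell types, KRT5, CD3E, PECAM1, DCN and CDH1 had 0 counts, and EPCAM and PTPRC at most 1. KRT14, VWF and COL1A1 had at most 15, 16 and 13 counts, each in MAPKi. Summed over its list, the lineage level was 1011 to 1083 CPM in DMSO and 2864 to 4216 CPM in MAPKi, and the level of the other markers 0.312 to 1.54 and 3.42 to 6.52 CPM. The part of these differences in the results was not tested.

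Pol II makes all mRNAs, including those of its own subunits. TFIID, built of TBP and TAF proteins, marks the promoter, TFIIA and TFIIB stabilise it there, TFIIF brings in Pol II, TFIIE brings in TFIIH, and the helicase of TFIIH opens the DNA. Mediator, with its head, middle, tail and kinase modules, bridges activators and Pol II. Triptolide binds the XPB helicase of TFIIH (gene ERCC3) and blocks initiation, so an mRNA's level afterwards follows from its decay. TAF1A, TAF1B, TAF1C and TAF1D form with TBP the SL1 factor of RNA polymerase I and share only the name with the TFIID subunits.

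The first comparison asked how the machinery's mRNAs differed after 18 h of MAPKi alone. In the vehicle arm at 0 h, 25 members were downregulated and 5 upregulated of 68 tested (edgeR quasi-likelihood test, Benjamini-Hochberg adjusted p under 0.05, n = 3 libraries per group), against 24% of all 14948 genes downregulated and 21.9% upregulated. The median log2 change of the members was −0.23, beside 0.03 for all genes. The downregulated members held 6 of 12 Pol II subunits, 4 of 9 general factor subunits, 4 of 14 mRNAs of TBP and TFIID TAFs, 2 of 4 SL1 subunits and 8 of 27 Mediator subunits. In bulk RNA, fewer cells that express a gene and less RNA per cell cannot be told apart.

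POLR2D (RPB4, which with POLR2G forms the stalk of Pol II) had the largest fall of the members. It had 94.6, 108 and 102 CPM (from here on scaled by TMM) in the DMSO libraries, and 37.4, 43.8 and 46.3 CPM in the MAPKi libraries. The groups did not overlap, and the log2 change was −1.26 with a standard error of 0.12 (edgeR adjusted p 2.49e-14). POLR2H (RPB8, a subunit shared by all 3 nuclear polymerases) had 97.5, 114 and 116 CPM in DMSO and 55.0, 55.8 and 67.9 CPM in MAPKi. It too fell without overlap, by 0.87 on the log2 scale (SE 0.11, edgeR adjusted p 2.44e-10). POLR2C, the subunit on which the Pol II core assembles, fell by 0.62 (SE 0.08), from 155, 169 and 179 CPM to 96.1, 121 and 111 CPM. The mRNA of the largest, catalytic subunit POLR2A was barely measured in these libraries. It had 3, 8 and 15 raw counts in DMSO and 5, 0 and 11 in MAPKi, so its level is not described on its own. POLR2A is still among the 12 Pol II subunits in the counts and medians of this group. POLR2B, the second largest subunit, had overlapping levels of 75.5, 123 and 142 CPM against 98.0, 64.4 and 73.7 CPM and was not called (log2 change −0.54, SE 0.35, edgeR adjusted p 0.214).

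Among the initiation factors, GTF2A2, the small subunit of TFIIA, was 88.3, 86.7 and 101 CPM in DMSO and 53.3, 56.9 and 48.9 CPM in MAPKi. The groups stood apart, with a log2 change of −0.80 (SE 0.11, edgeR adjusted p 1.39e-09). TAF4B, a TFIID subunit known for its restricted expression, fell by 0.84 (SE 0.18), from 21.98, 28.01 and 20.8 CPM to 15.8, 11.8 and 11.9 CPM. TAF1A and TAF1D of SL1 fell by 0.96 (SE 0.28) and 0.71 (SE 0.17), and TAF7, which restrains TAF1, fell by 0.35 (SE 0.10). The opposite direction was seen for GTF2F2, the small subunit of TFIIF, with 137, 133 and 133 CPM in DMSO and 186, 201 and 190 CPM in MAPKi. Its libraries varied little within a group, and the log2 change of 0.52 had a standard error of 0.07 (edgeR adjusted p 5.73e-09). TBP, GTF2B and TAF1 overlapped between the groups and were not called, with log2 changes of −0.36 (SE 0.27), −0.36 (SE 0.32) and −0.19 (SE 0.30).

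In Mediator, the largest rise among members was that of MED15, a tail subunit that activators bind. It had 132, 107 and 101 CPM in DMSO and 242, 257 and 249 CPM in MAPKi. Every MAPKi library lay above every DMSO library, and the log2 change was 1.14 (SE 0.11, edgeR adjusted p 2.82e-14). MED13L of the kinase module rose by 0.55 (SE 0.12), from 74.2, 66.2 and 80.8 CPM to 111, 101 and 114 CPM. MED14, the scaffold that joins the modules, fell by 0.65 (SE 0.18), and MED1, which nuclear receptors bind, fell by 0.39 (SE 0.08). MED26, which links Mediator to elongation factors, fell by 0.55 (SE 0.22), from 14.9, 17.2 and 18.3 CPM to 12.2, 12.7 and 9.70 CPM. TAF8 (log2 change 0.51) and MED16 (0.50) were the other members called as higher. Of the 30 calls, 16 were kept whichever replicate number was left out, and 14 were lost at least once (edgeR). TAF8 was lost without replicate 1, 2 or 3 (adjusted p 0.111, 0.216 and 0.0754), MED16 without 1 or 3 (0.219 and 0.254), TAF5 (−0.78) without 1 or 3 (0.173 and 0.0667), MED26 without 1 or 3 (0.0567 and 0.366) and MED30 (−0.90) without 2 or 3 (0.248 and 0.134). The other 9 were GTF2E1, GTF2E2, GTF2F1, MED12L, MED4, MED8, POLR2I, POLR2K and TAF5L, with log2 changes from −0.57 to −0.28.

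**Figure D1:**
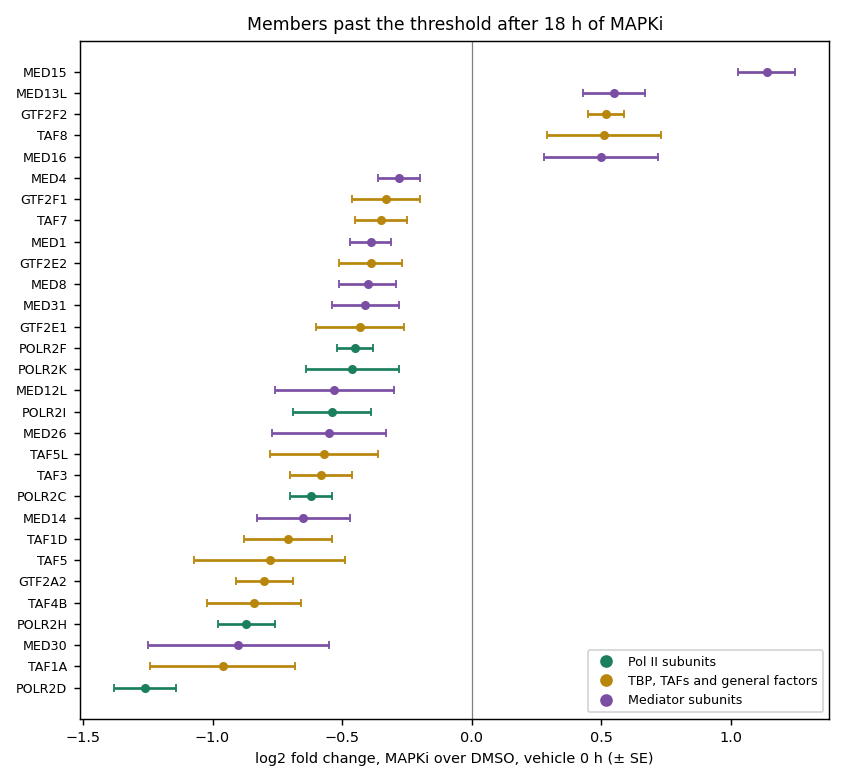
Log2 change of the members called in MAPKi against DMSO, vehicle arm at 0 h, with standard errors of the edgeR fit (n = 3 libraries per group). Members are sorted by change and coloured by group, and tested members that were not called are not drawn. MED15 is the highest at 1.14 and POLR2D the lowest at −1.26, and no Pol II subunit is called as higher.

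The second comparison followed the machinery's own mRNAs while triptolide blocked the machinery. Because triptolide lowers most mRNAs, counts were divided by size factors taken from 36 stable genes, and the share left is the normalised count as a percent of the mean of vehicle at 0 h in the same pretreatment. The stable genes include 1 member, TAF10, whose share is therefore held near the start by the scaling. After 1 h, the median share left over the 68 members was 94.5% ± 0.769 in DMSO cells (SD of the medians of n = 3 libraries). It was 77.1% ± 3.24 after 3 h and 64.7% ± 2.38 after 5 h, beside 64.4% ± 3.16 for all genes with a start value. In MAPKi cells, the median after 5 h was 56.0% ± 5.597 for the members and 59.3% ± 1.44 for all genes.

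After 5 h, 41 of 68 members were lower than at the start in DMSO and 48 in MAPKi (edgeR adjusted p under 0.05), with 49.3% and 55.1% of all genes lower. No member was higher in either (1.49% and 1.54% of all genes). With each replicate number left out in turn, 33 of the 41 calls and 38 of the 48 were kept each time. The stable genes were chosen anew each time, and were 96, 131 and 164 without replicate 1, 2 and 3. A call lost under stable-gene scaling thus reflects a changed scaling as well as a missing replicate, here and below. The scaling sets this direction. Over all genes tested, the median log2 change was −0.57 in DMSO and −0.69 in MAPKi with stable genes and −0.01 and 0.06 with TMM, which centres the typical gene. With TMM the median share left over the members was 95.6% in DMSO and 94.5% in MAPKi. After 3 h, 28 members were lower in DMSO and 41 in MAPKi (32.7% and 41.8% of all genes). After 1 h, edgeR called 1 member in DMSO (0.823% of all genes were lower) and 0 in MAPKi (1.57%), where 5 members (13% of all genes) had an unadjusted p under 0.05 and DESeq2 called 0. The early member was TAF1D, which fell by 0.79 on the log2 scale (SE 0.16, adjusted p 0.00206) in DMSO, and its change in MAPKi was −0.52 (adjusted p 0.0884). TAF1D hosts several small nucleolar RNAs and overlaps MED17 on the other strand, and its call was lost under scaling to mitochondrial rRNA.

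**Figure D2:**
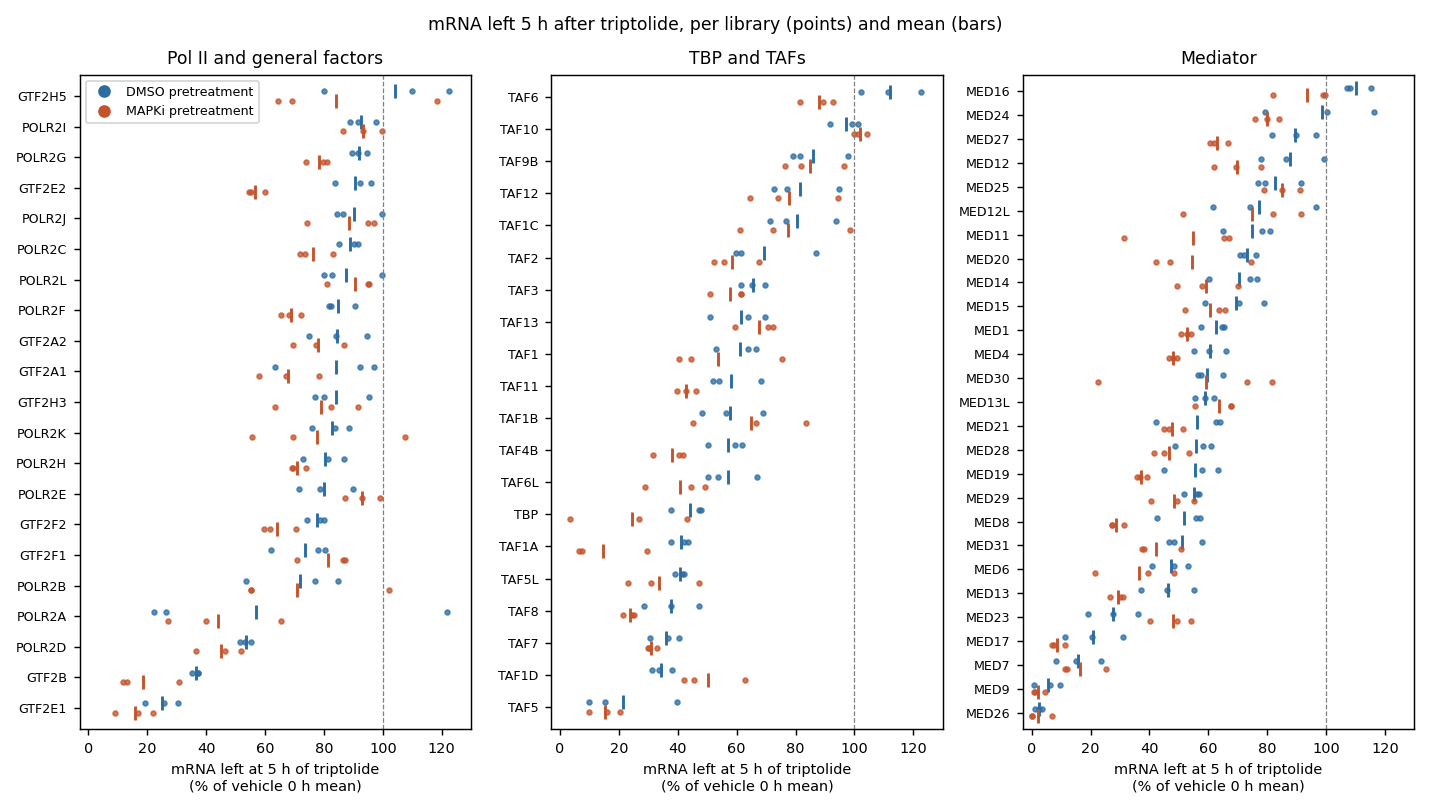
Share of each tested member's mRNA left 5 h after triptolide, in percent of vehicle at 0 h and by complex, for DMSO and MAPKi cells (mean of 3 libraries, stable-gene scaling). Pol II subunits lie high, with a median of 85.2% in DMSO, and MED26 and MED9 lie lowest, at 2.40% and 5.51%. With TMM scaling, the median over all members is 95.6% in DMSO.

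The complexes differed in how much was left. The median of the Pol II subunits was 85.2% ± 1.94 in DMSO cells and 74.0% ± 3.14 in MAPKi cells (SD, n = 3 libraries). The general factors kept 82.4% ± 8.82 and 68.2% ± 8.98, TBP with the TFIID TAFs 61.5% ± 4.62 and 52.4% ± 6.10, and Mediator 58.8% ± 1.36 and 49.4% ± 3.97. Within Mediator, the middle module kept 49.7% ± 2.76 in DMSO, the head 51.9% ± 8.15, the kinase module 66.4% ± 7.19 and the tail 82.6% ± 7.80. These medians over few genes carry no test. Relative to the typical mRNA, that is, with TMM scaling, 14 members were higher and 19 lower at 5 h in DMSO (edgeR; 13.7% and 21.4% of all genes), and 18 and 22 in MAPKi (20.6% and 21.1%). Of these calls, 15 of 33 and 25 of 40 were kept with each replicate number left out in turn. Of the Pol II subunits, 6 of 12 were higher and 1 lower in DMSO, and 7 and 1 in MAPKi. Of the Mediator middle module, 0 of 8 were higher in either pretreatment and 5 were lower in DMSO and 6 in MAPKi. TAF5L and TAF6L, 2 of the subunits of the SAGA complex, were lower than at the start in both pretreatments with stable-gene scaling. The DMSO call of TAF6L was lost without replicate 1 or 2 (edgeR adjusted p 0.234 and 0.122).

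The members with the least mRNA left came from Mediator, TFIID and TFIIE. MED26, MED7 and MED17 overlap exons of other annotated genes on the same strand, and TAF5 and GTF2E1 on the other strand, so their counts are uncertain. MED26 had 72, 110 and 173 raw counts at the start in DMSO and 4, 2 and 7 after 5 h. Its share left fell from 88.5% after 1 h to 15.8% after 3 h and to 2.38%, 1.27% and 3.55% in the 3 libraries after 5 h. The log2 change at 5 h was −5.29 (SE 0.33, edgeR adjusted p 5.71e-24). In MAPKi, MED26 went from 89, 71 and 72 raw counts to 0, 10 and 0, so that replicate 2 stood above the other libraries, and the log2 change was −5.08 (SE 0.36). MED9, a small subunit of the middle module, had 0.812%, 6.06% and 9.67% left in DMSO and 0.797%, 4.50% and 1.18% in MAPKi. The libraries of MED9 differed severalfold at these few counts, and none reached 10% of the start (log2 changes −4.11, SE 0.40, and −5.29, SE 0.46).

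MED7, a scaffold of the middle module, had 15.1%, 23.7% and 8.31% left in DMSO. MED17, the central subunit of the head, had 20.4%, 30.98% and 11.4% in DMSO and 6.77%, 7.51% and 11.3% in MAPKi. None of these libraries was above 30.98% of the start, and the 2 log2 changes in DMSO were −2.68 (SE 0.31) and −2.27 (SE 0.27). TAF5, a core subunit of TFIID, had 9.72%, 39.7% and 15.2% left in DMSO and 20.3%, 9.82% and 16.01% in MAPKi. GTF2E1, the large subunit of TFIIE, had 30.4%, 25.8% and 19.1% in DMSO and 9.02%, 21.8% and 16.7% in MAPKi. GTF2E1 fell by 2.00 (SE 0.20) in DMSO and by 2.64 (SE 0.22) in MAPKi, whereas GTF2E2, its partner in TFIIE, kept 90.7% ± 6.29 and 56.6% ± 2.92 (SD, n = 3).

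At the other end, the 5 members with the highest share in DMSO were TAF6, MED16, GTF2H5, MED24 and TAF10, with means from 97.3% to 112%. In MAPKi they were TAF10, MED16, POLR2I, POLR2E and POLR2L, from 90.4% to 102%. Of these 8 members, POLR2E was called as lower than at the start in DMSO (log2 change −0.32, lost without replicate 1 or 3) and the others in neither pretreatment. Relative to the typical mRNA, TAF6, MED16 and TAF10 were higher in both (edgeR; log2 0.73, 0.70 and 0.51 in DMSO). The call of MED16 was lost in DMSO without replicate 1 or 3 (edgeR adjusted p 0.0999 and 0.144) and in MAPKi without replicate 1 (0.160). Pol II subunits were not all alike. POLR2D had 55.3%, 51.6% and 53.2% left in DMSO and 36.7%, 46.4% and 52.0% in MAPKi, the lowest DMSO share of the 12 subunits. POLR2E, POLR2F and POLR2L, small subunits that Pol II shares with other polymerases, kept 80.1%, 84.8% and 87.5% in DMSO. POLR2F overlaps SOX10 on the other strand and POLR2J has near-identical copies, so their counts are uncertain. Exons of POLR2C, POLR2D, TAF6, TAF10 and MED24 overlap other annotated genes on the same strand, so these counts are uncertain too. Those of POLR2E, POLR2I, POLR2L, MED15 and MED16 overlap genes on the other strand, and strand use in counting is not given. POLR2B kept 53.5%, 77.1% and 84.7% in DMSO and was not called (log2 change −0.49, SE 0.34).

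TBP, needed by all 3 nuclear polymerases, had 48.0%, 47.1% and 37.6% left in DMSO and 26.8%, 43.3% and 3.45% in MAPKi. Replicate 3 of MAPKi stood far below the other libraries, and the log2 changes were −1.19 (SE 0.28) and −1.91 (SE 0.30). GTF2B (TFIIB) had 37.2%, 35.3% and 37.1% in DMSO and 11.7%, 30.6% and 12.95% in MAPKi. It fell by 1.45 (SE 0.33) and by 2.38 (SE 0.37). TAF7 kept 35.9% ± 4.91 and 31.04% ± 1.70, and MED1 62.5% ± 4.42 and 52.7% ± 1.68 (SD, n = 3), and both fell in both pretreatments. TAF1, the largest TFIID subunit, fell by 0.72 (SE 0.30) in DMSO, a call lost without replicate 1, 2 or 3 (edgeR adjusted p 0.0799, 0.0714 and 0.0928). The call of MED14 in DMSO (log2 change −0.50, and 0.07 with TMM scaling) was lost without replicate 1 or 2 (0.112 and 0.102), and that of MED12 in MAPKi (−0.51, and 0.24 with TMM scaling) without replicate 1, 2 or 3 (0.0502, 0.0672 and 0.111).

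**Figure D3:**
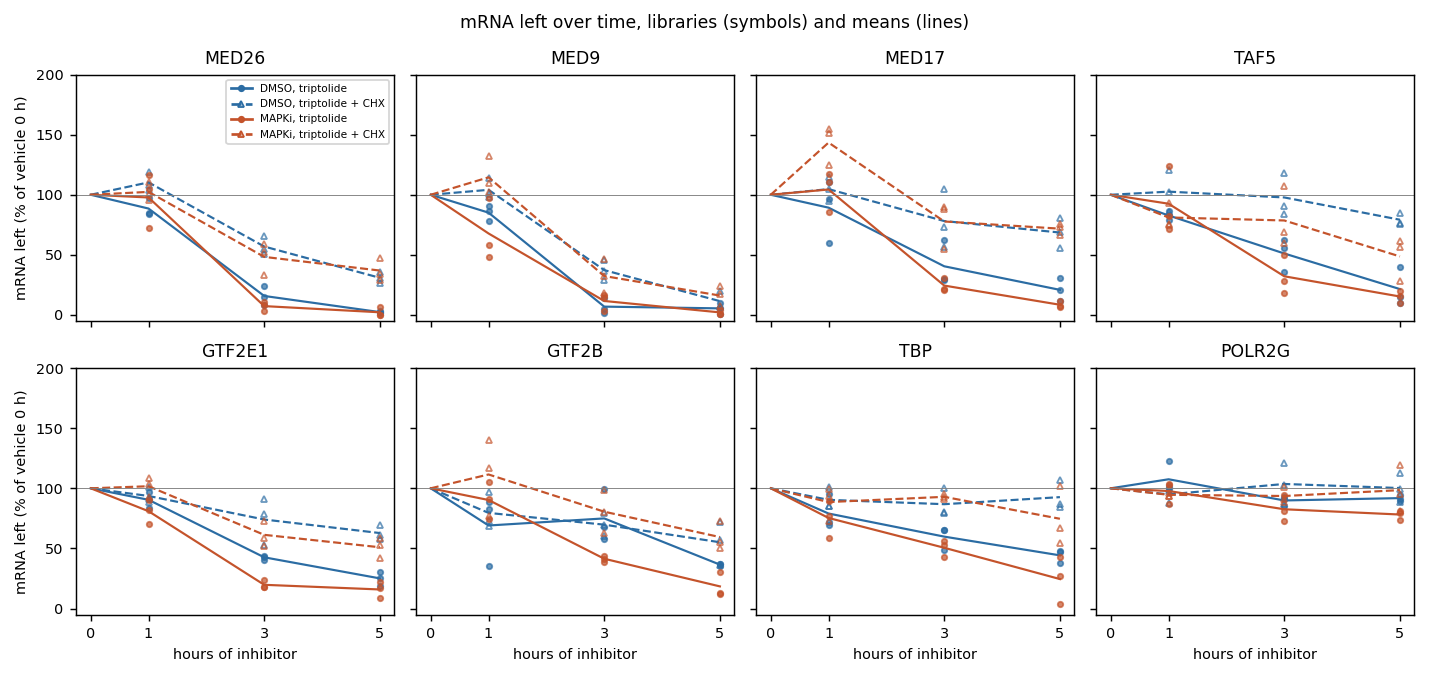
Share of mRNA left over time for members named in the text, in percent of vehicle at 0 h, with 1 point per library and the mean of 3 joined, for T and TCHX in both pretreatments. The T values of MED26 fall from 88.5% at 1 h to 2.40% at 5 h in DMSO, and its TCHX value at 5 h is 30.9%.

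The sequences that follow show the AUUUA pentamer, written ATTTA as in the annotation, in mRNAs that the results turn on. AUUUA is the core of AU-rich elements, which are known for their place in mRNA turnover. Each window is 25 bases of the 3′ UTR, sense strand, around the ATTTA nearest the stop codon, in capitals, from the GENCODE v44 annotation of GRCh38.
MED26 (chr19:16575330-16575354, minus strand): tgctgcaaaaATTTAagttttctca
MED9 (chr17:17492911-17492935, plus strand): aaggctctggATTTAagcgggtggt
MED7 (chr5:157138394-157138418, minus strand): tgaaaaggggATTTAgcatttgctt
TAF5 (chr10:103388291-103388315, plus strand): agtgattaatATTTAagctacagag
GTF2E1 (chr3:120781532-120781556, plus strand): gaagaaaagtATTTAagtggctttc
POLR2D (chr2:127847129-127847153, minus strand): tgaaggattcATTTAgtcaccctca

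These are 5 of the 6 members with the lowest share left in DMSO, and POLR2D, and they hold 1, 2, 1, 7, 4 and 9 ATTTA motifs in the order shown. No printed pentamer lies within the longer motif TATTTAT. That motif was in the 3′ UTR of 37.3% of all genes tested, 35.8% of the members and 33.3% of the 6 with the lowest shares. The pentamer is common. It occurs on the sense strand of the 3′ UTR in 74.7% of all genes tested with an annotated 3′ UTR (8930 of 11954), in 76.1% of the members (51 of 67), in 81.5% of Mediator subunits (22 of 27) and in 45.5% of Pol II subunits (5 of 11). Among members with at least 50 normalised counts at the start, the median share left at 5 h in DMSO was 84.8% for the 15 without ATTTA, 58.1% for the 31 with 1 to 3 and 59.6% for the 20 with 4 or more. For all such genes the medians were 79.2%, 69.8% and 64.6%. In MAPKi the members had medians of 79.9%, 52.7% and 50.8%, beside 73.7%, 64.9% and 58.7% for all genes. Members went both ways, since GTF2H5 has 15 motifs with 104% left in DMSO and GTF2A1, the large subunit of TFIIA, 17 motifs with 84.3%.

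Across the 66 such members in DMSO, the Spearman rho between the number of ATTTA motifs and the share left was −0.35, and −0.39 across 64 in MAPKi (−0.22 and −0.21 across all genes). The A and T percent of the 3′ UTR gave −0.35 and −0.27 (−0.13 and −0.16 across all genes). The percent of codons ending in A or T gave −0.35 and −0.34 (−0.14 and −0.17 across all genes). The percent of aspartate and glutamate codons gave −0.08 and −0.06. These are descriptions across genes measured in the same libraries, which also share depth and base composition, and genes are not independent replicates. The match to a pentamer does not show that a protein binds there.

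The third comparison asked how much of the loss during triptolide depended on translation. With cycloheximide added, members kept a median of 85.8% ± 4.30 at 5 h in DMSO cells and 87.7% ± 1.11 in MAPKi cells (SD, n = 3), beside 79.7% and 83.1% for all genes. Over 3 and 5 h, 29 of 68 members were higher in TCHX than in T in DMSO and 48 in MAPKi (edgeR, stable-gene scaling), against 28.4% and 41.4% of all genes, and 0 members were lower in either (0.468% and 0.535%). In either direction, 39 members had an unadjusted p under 0.05 in DMSO and 55 in MAPKi (37.3% and 47.6% of all genes). With each replicate number left out in turn, 17 of the 29 calls and 34 of the 48 were kept each time. The median log2 difference of the members was 0.30 in DMSO and 0.48 in MAPKi, beside 0.23 and 0.34 for all genes. The stable genes were chosen by their rise in T and not in TCHX, so the scaling bears on the direction of these differences. With TMM scaling the members called were fewer and some were lower, 15 higher and 4 lower in DMSO (15% and 6.98% of all genes) and 23 and 7 in MAPKi (18.9% and 15.1%). Mediator had 16 of 27 subunits higher in DMSO and 23 in MAPKi, and Pol II 1 of 12 and 5 of 12.

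The largest differences were those of MED26, MED9, MED7, TAF5 and MED17 in DMSO, and of MED26, MED17, MED7 and MED9 in MAPKi. For MED26, 35.5%, 26.5% and 30.8% of the start was left after 5 h of TCHX in DMSO, above the highest T library of 3.55%. Over 3 and 5 h the log2 difference was 2.72 (SE 0.23, edgeR adjusted p 1.6e-17), and 3.15 (SE 0.26) in MAPKi. MED17 had 80.7%, 56.1% and 69.0% left with TCHX in DMSO and 75.6%, 66.8% and 73.0% in MAPKi, and its differences were 1.32 (SE 0.19) and 2.38 (SE 0.21). In both pretreatments every TCHX library of MED17 lay above every T library at 5 h. MED9 kept little mRNA even with TCHX, at 6.59%, 7.61% and 20.4% in DMSO, which overlaps its T libraries at 5 h. Its difference over 3 and 5 h was 1.55 (SE 0.33, edgeR adjusted p 9.44e-05) and 1.95 (SE 0.34).

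MED7, TAF5 and GTF2E1 had log2 differences of 1.47 (SE 0.22), 1.41 (SE 0.21) and 1.05 (SE 0.14) in DMSO and of 1.97, 1.54 and 1.64 in MAPKi. TAF5 had 76.7%, 75.9% and 85.1% left with TCHX in DMSO, all above its T libraries. TBP was higher by 0.79 (SE 0.19) in DMSO and 1.18 (SE 0.21) in MAPKi, and the DMSO call was lost without replicate 1 (log2 difference 0.63, edgeR adjusted p 0.0755). TAF7 was higher by 0.73 (SE 0.08) and 0.99 (SE 0.08). GTF2B was called in MAPKi only, at 1.27 (SE 0.25) against 0.26 (SE 0.23) in DMSO, and the test of the difference missed the threshold (1.01, SE 0.34, edgeR adjusted p 0.0543). POLR2B and MED14 were not called in either pretreatment, with log2 differences of −0.14 and −0.04 in DMSO and −0.09 and 0.16 in MAPKi. The smallest called difference in DMSO was that of MED1 (0.17, SE 0.06), which was lost without replicate 1, 2 or 3 (edgeR adjusted p 0.228, 0.232 and 0.1499) and is −0.07 under TMM scaling. The call of MED12 in MAPKi (0.40, SE 0.14) was lost without replicate 1, 2 or 3 too (0.0816, 0.0893 and 0.0985).

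**Figure D4:**
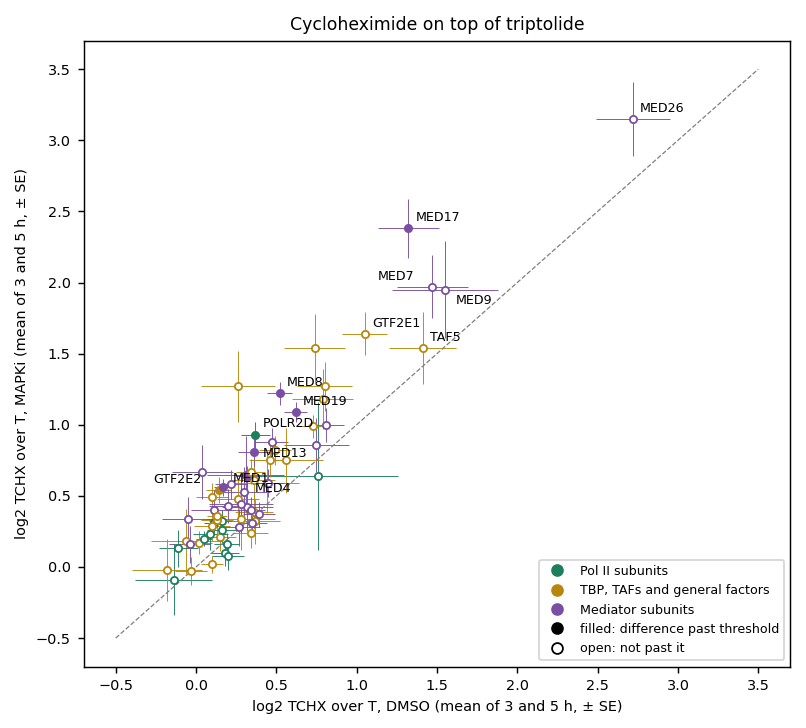
Log2 TCHX over T of each tested member, averaged over 3 and 5 h with stable-gene scaling, with DMSO on the horizontal and MAPKi on the vertical axis (edgeR, 3 libraries per group). MED26, at 2.72 and 3.15, lies farthest out. Under TMM scaling, the direction of MED1 in DMSO flips to −0.07.

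The fourth comparison asked whether MAPKi changed these responses, with a test of the difference itself. Over 3 and 5 h of triptolide, 3 members lost more mRNA in MAPKi than in DMSO and 0 lost less (edgeR; 2.76% of all genes lost more and 0.415% less). After 5 h, MED8, a head subunit, had 57.2%, 55.9% and 42.5% left in DMSO cells and 27.3%, 31.2% and 27.3% in MAPKi cells. MED19, which links Mediator to Pol II, had 63.1%, 58.0% and 45.1% in DMSO and 35.7%, 36.9% and 39.3% in MAPKi. In both genes all MAPKi libraries lay below all DMSO libraries. The differences in log2 change were −0.69 (SE 0.13, adjusted p 0.000448) for MED8, −0.45 (SE 0.12, 0.0251) for MED19 and −0.87 (SE 0.24, 0.0225) for GTF2E1. The count was 0 without replicate 1 and 0 without replicate 3, 4 without replicate 2, with MED26 among them (−2.92, adjusted p 0.0155), 1 with TMM scaling and 5 with DESeq2.

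The difference between TCHX and T was larger in MAPKi for 8 members and smaller for 0 (edgeR; 6.82% and 0.294% of all genes). They were MED17 (1.06, SE 0.29), MED8 (0.69, SE 0.11), POLR2D (0.57, SE 0.13), MED19 (0.47, SE 0.10), MED13 (0.45, SE 0.14), GTF2E2 (0.41, SE 0.12), MED1 (0.39, SE 0.09) and MED4 (0.32, SE 0.09). The T libraries enter both this test and the one before. After 5 h of TCHX, MED8 had 89.2%, 88.4% and 83.9% left in DMSO cells and 97.0%, 91.5% and 99.2% in MAPKi. POLR2D had 74.2%, 73.4% and 70.5% with TCHX in DMSO and 78.0%, 101% and 113% in MAPKi. Its MAPKi libraries were thus the higher with TCHX and, as given above, the lower or overlapping with T. Without replicate 1, 2 or 3, the count was 4, 5 and 3, and MED8 was called each time. The other 7 members were each lost without at least 1 replicate number, and MED26 was added without replicate 2 (3.12, edgeR adjusted p 0.0024).

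The TDD index, an index of translation-dependent decay, is the normalised count in TCHX minus that in T, divided by the start. Over the members its median in the DMSO libraries was 0.148 ± 0.0258, and that in the MAPKi libraries 0.252 ± 0.0368 (SD, n = 3), beside 0.122 ± 0.0342 and 0.185 ± 0.0109 for all genes. In limma with adjustment over 10673 genes, 0 of 67 members differed between the pretreatments, as 0.112% of all genes did. An ordinary linear model with unadjusted p of at most 0.05 gave 13 members higher in MAPKi and 0 lower, with 14.7% and 1.36% of all genes. POLR2D, MED8 and MED1 had differences of 0.31, 0.24 and 0.19, with limma adjusted p from 0.074 to 0.085.

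The last comparison set cycloheximide alone against vehicle, without triptolide. Over 3 and 5 h, 23 of 68 members were higher and 3 lower in DMSO (edgeR, TMM scaling; 18.3% and 13.4% of all genes), and 13 and 2 in MAPKi (15.9% and 13.9%). Of these calls, 17 of 26 and 9 of 15 were kept with each replicate number left out in turn. The higher members in DMSO held 12 of 27 Mediator subunits and 0 of 12 Pol II subunits. After 1 h no member was called in either pretreatment (0.0736% of all genes), with 1 at an unadjusted p under 0.05 in DMSO and 10 in MAPKi (4.71% and 9.55% of all genes).

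TAF1D had 123, 131 and 167 CPM in vehicle at 5 h in DMSO and 404, 460 and 586 CPM with CHX. Every CHX library was above every vehicle library, and the log2 change over 3 and 5 h was 1.58 (SE 0.12, edgeR adjusted p 6.05e-20). In MAPKi, TAF1D had 85.3, 93.2 and 110 CPM in vehicle and 133, 190 and 154 CPM with CHX, a log2 change of 0.62 (SE 0.12). The change was smaller in MAPKi by 0.95 (the difference was −0.95, SE 0.16, adjusted p 7.83e-06). GTF2B had 11.5, 4.63 and 15.2 CPM in vehicle and 31.4, 33.7 and 57.9 CPM with CHX in DMSO. Its vehicle mean in DMSO was 17.2, 21.05, 20.5 and 10.4 CPM at 0, 1, 3 and 5 h. In MAPKi it was 13.3, 12.8, 14.9 and 15.1 CPM. The lower DMSO vehicle level at 5 h enters the change of GTF2B with CHX, and its part was not tested. Its MAPKi libraries overlapped, at 12.2, 12.03 and 21.1 CPM against 14.9, 21.4 and 19.2 CPM, and the difference between pretreatments was −1.08 (SE 0.31, adjusted p 0.0119).

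TAF1 rose by 1.30 (SE 0.22) on the log2 scale in DMSO, from 36.0, 28.1 and 52.2 CPM to 99.7, 108 and 201 CPM at 5 h, and was not called in MAPKi (0.30, SE 0.21). Its vehicle mean in DMSO was 60.85, 63.0, 58.0 and 38.8 CPM at 0, 1, 3 and 5 h. The lower level at 5 h enters this rise, and its part was not tested. TAF7 rose by 0.74 (SE 0.07) in DMSO, from 178, 165 and 178 CPM to 320, 309 and 356 CPM at 5 h, and was at 0.17 (SE 0.07, edgeR adjusted p 0.0531) in MAPKi. In all, 5 members had a smaller change in MAPKi and 0 a larger one (edgeR; 6.6% and 4.64% of all genes), with TAF1 at −1.0 (SE 0.30), TAF7 at −0.58 (SE 0.10) and MED13 at −0.49 (SE 0.12). The calls of GTF2B and TAF1 were lost without replicate 1 or 3, and that of MED13 without 2 or 3, so that the count was 3, 4 and 2 without replicate 1, 2 and 3.

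MED26 rose in both pretreatments, from 16.7, 14.2 and 20.8 CPM to 53.8, 51.5 and 60.5 CPM at 5 h in DMSO and from 10.2, 12.4 and 10.1 CPM to 25.6, 28.5 and 22.8 CPM in MAPKi. The groups did not overlap in either, and the log2 changes were 1.27 (SE 0.15) and 1.03 (SE 0.15). TAF1A rose by 0.89 (SE 0.19) and 1.24 (SE 0.20), and TAF2 by 0.74 (SE 0.08) and 0.42 (SE 0.08). MED17, MED7 and TBP rose in DMSO by 0.87 (SE 0.16), 0.76 (SE 0.19) and 0.74 (SE 0.19), with TBP lost without replicate 1 (edgeR adjusted p 0.110). POLR2E and POLR2F fell by 0.28 (SE 0.08) and 0.14 (SE 0.05) in DMSO, where POLR2E was lost without replicate 2 (adjusted p 0.0726). TAF10 fell by 0.17 (SE 0.06) and 0.16 (SE 0.06), and was lost without replicate 2 or 3 in DMSO and without 1, 2 or 3 in MAPKi.

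**Figure D5:**
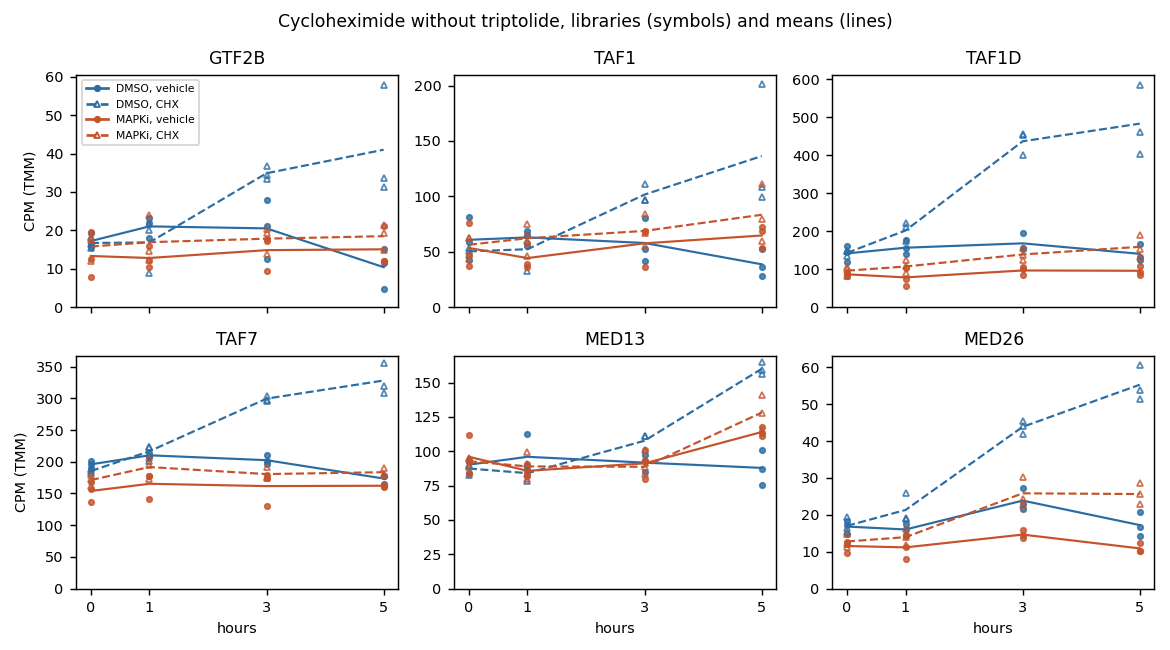
CPM (TMM scaling) over time of GTF2B, TAF1, TAF1D, TAF7, MED13 and MED26, with cycloheximide alone or vehicle, in both pretreatments. Each point is 1 library, and the means of 3 are joined. The edgeR log2 changes over 3 and 5 h in DMSO and MAPKi were 1.58 and 0.62 for TAF1D and 1.34 and 0.26 for GTF2B. They were 1.30 and 0.30 for TAF1 and 1.27 and 1.03 for MED26.

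Other genes of the pathway, from a list of 70 of which 63 were tested, included some with larger changes than any member in MAPKi at 0 h. There, 26 were downregulated and 3 upregulated (24% and 21.9% of all genes), with 6 of 7 Pol I subunits and 6 of 10 Pol III genes down. POLR1B, the second largest Pol I subunit, fell by 2.19 (SE 0.11), and POLR3G, a Pol III subunit, by 2.15 (SE 0.12), beside −1.26 for the lowest Pol II subunit. CDK19, a paralog of the Mediator kinase CDK8, rose by 1.1 (SE 0.15), and CCNC, the cyclin of that kinase, fell by 0.63 (SE 0.12). After 5 h of triptolide, 45 of the 63 were lower in DMSO and 53 in MAPKi (49.3% and 55.1% of all genes). CCNT1 and CCNT2, the cyclins of the elongation kinase P-TEFb, fell by 3.15 (SE 0.15) and 2.72 (SE 0.19) in DMSO, and HEXIM1, which inhibits that kinase, by 2.18 (SE 0.16). ERCC3, which encodes the target of triptolide, fell by 0.70 (SE 0.15) in DMSO and 0.87 (SE 0.16) in MAPKi. In TCHX against T, 31 of the 63 were higher in DMSO and 49 in MAPKi (28.4% and 41.4% of all genes). CCNT1 and CCNT2 were both at 1.46 in DMSO.

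Without a second inhibitor, few members were called over the 5 h. In the vehicle arm, 0 of 68 members differed between 5 and 0 h in DMSO by edgeR, with 7 at an unadjusted p under 0.05 (1.06% of all genes were called, and 12.1% had such a p). In MAPKi, POLR2F was lower (log2 change −0.35, SE 0.07; 2.07% of all genes were lower) and 13 had an unadjusted p under 0.05 (14.9% of all genes). Between the T arm and vehicle at 0 h, 0 members differed in either pretreatment (0% and 0.0201% of all genes by edgeR), with 0 and 9 at an unadjusted p under 0.05 (2.66% and 7.79%).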

How the data were processed

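RNA counts of 96 libraries were analysed. According to the methods and the submitters' processing notes, the authors trimmed reads with fastp 0.20.1, mapped them to GRCh38 with HISAT2 2.2.1 and counted them on exons with htseq-count (HTSeq 0.13.5). The table deposited by the authors holds raw counts, whole reads per gene without normalization. Strand use is not given in the sources used here, no molecular identifiers are described, and the table has 0 spike-in entries, so precision covers counting error and library spread. The 14 suffixed entries of member names carried 898 counts and were left out of the members. No column was left unmapped.

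Counts were fitted with edgeR 4.0.16 in R 4.3.3 (filterByExpr, 14948 genes, 1 mean per group, quasi-likelihood tests, two-sided, Benjamini-Hochberg adjusted p under 0.05). TMM scaling was used for comparisons without triptolide. For triptolide, DESeq2 1.42.0 size factors were taken over 36 stable genes, which had more than 0.2 CPM and rose at least 1.1 times in T at 3 and 5 h in every replicate. The TDD index was tested with limma 3.58.1, with a replicate term as in the study and at least 10 normalised counts at the start. The script was tested on simulated counts. Members, gene lists and comparisons were chosen with earlier results of these data known. Named were called members with the largest changes whose direction was shared by all 3 replicate numbers (up to 10 rising and 10 falling), 11 anchor genes, and the 5 lowest and 5 highest shares left. Alternatives covered scaling, filter, tool, start, replicate block and left-out replicates. Column headers share a prefix by replicate number across all groups. Same-numbered libraries deviated together only weakly, with correlations from −0.10 to 0.283 over the compared pairs of groups. The edgeR tests did not treat the numbers as pairs, and the TDD index was computed within each number. Coordinates and 3′ UTRs came from GENCODE v44 (GRCh38). The sequence window of 1 further member is not reported here.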

Additional observations from a re-analysis of the deposited data

Results flagged for a closer look

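Several members responded differently in MAPKi and DMSO cells by edgeR's test of the difference itself, with adjustment over all 14948 genes and n = 3 libraries per group. In the loss of mRNA over 3 and 5 h of triptolide, the difference (MAPKi minus DMSO, log2) was −0.87 for GTF2E1, −0.69 for MED8 and −0.45 for MED19. For TCHX against T, it was 1.06 for MED17, 0.69 for MED8, 0.57 for POLR2D, 0.47 for MED19, 0.45 for MED13, 0.41 for GTF2E2, 0.39 for MED1 and 0.32 for MED4. For cycloheximide alone against vehicle, it was −1.08 for GTF2B, −1.0 for TAF1, −0.95 for TAF1D, −0.58 for TAF7 and −0.49 for MED13. With each replicate number left out in turn, all 3 calls of the first set were lost at least once. So were 7 of the 8 of the second and 3 of the 5 of the third. The first 2 sets use the same T libraries, and their stable genes were chosen anew for each left-out replicate number. Total counts and the spread of low members differ between libraries, and their part in these differences was not tested.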

How the results depend on the processing

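Of the counts of called members and median shares under an alternative, 158 stayed within the limits set for them and 34 did not (27 moved, 4 passed from 0 to at least 1 call and 3 fell to 0). The median share left at 5 h moved most with scaling. In DMSO it was 64.7%, and 95.6% with TMM, 83.1% with total counts and 57.5% with stable genes of both T and TCHX, a set of 85 genes at 3 or 5 h added after seeing the data because the planned set, stable at both times, held 1 gene and gave no value. In MAPKi it was 56.0%, and 94.5% with TMM, 73.8% with total counts and 45.4% with mitochondrial rRNA scaling. Members lower after 1 h of triptolide (1 in DMSO, 0 in MAPKi) were 3 and 1 without the filter on low counts, 3 and 2 with the added set, 0 in DMSO with mitochondrial rRNA and 1 in MAPKi with the T arm at 0 h as start. The 3 members that lost more in MAPKi became 1 without the filter, 5 with DESeq2, 1 with TMM, 14 with mitochondrial rRNA, 1 with the added set, 5 from the T arm at 0 h and 6 against vehicle at the same time. Members that differed in TCHX against T were 19 in DMSO and 30 in MAPKi with TMM, 31 in MAPKi with total counts and 30 with the added set. The 8 with a difference between pretreatments became 3 with TMM, 4 with mitochondrial rRNA and 5 with the added set. The TDD index gave 13 members in place of 0 with the ordinary linear model. Leaving out 1 replicate number gave 0 to 4 members for the difference in loss, 3 to 5 for that in TCHX against T and 2 to 4 for that in cycloheximide alone. Directions that turned were, in DMSO at 5 h, MED14 (0.07), TAF10 (0.51) and MED24 (0.53) with TMM and TAF10 (0.31) with total counts, and in MAPKi, MED12 (0.24), MED14 (0.01), POLR2L (0.61), POLR2E (0.65), POLR2I (0.66) and MED16 (0.67) with TMM and POLR2E (0.29) with total counts. In TCHX against T in DMSO, MED1 was −0.07 with TMM. Apart from scaling and numbers of samples or genes set by construction, the cause was not tested.

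With the replicate block, that is, the replicate number as a term, the counts of called members were 31 for MAPKi against DMSO, 41 and 50 for 5 h of triptolide in DMSO and MAPKi, 4 for the difference in loss, 30 and 48 for TCHX against T, 8 for its difference, 29 and 18 for cycloheximide alone and 6 for its difference. No count moved over 1.5 times. Without the block, the TDD index still called 0 members. Whether the numbers pair the libraries was not settled. Column headers share a prefix by replicate number across all groups, without saying what it stands for. Correlations of same-numbered deviations over the compared pairs of groups were weak, from −0.10 to 0.283. In DMSO, however, each of the 3 vehicle libraries at 0 h correlated best with its own number after 5 h of triptolide. Few counts limit what can be said of POLR2A, and of MED26 after triptolide. The annotated POLR2A transcript used here has a 3′ UTR of 0 bases, and the reason for its few counts was not tested.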
